A study of Mus musculus with 24 samples.

Results

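VS-4718 was compared with defactinib at a matched dose and time in MS03 cells, an immortalized murine Schwann cell (SC) line. Of the 24 RNA-seq libraries of the series, 6 carry these drugs, 3 with VS-4718 and 3 with defactinib, and the members were all genes counted in them. MS03 came from an *Nf2* flox/flox mouse and lost *Nf2* through Cre infection in culture, so every library, the controls included, is *Nf2*-/- and stems from 1 line. Both drugs were given at 1 μM for 24 hours, and 3 libraries with the solvent DMSO served as the shared control. The study describes both as inhibitors of the kinase activity of focal adhesion kinase (FAK). From kinome profiling of MS03 cells at the same dose and time, it reports that the 2 drugs had similar FAK specificity. The comparison asks whether 2 drugs with 1 named target left the same transcriptome. The libraries are labelled as biological replicates without a statement on separate days or passages, so p-values measure the spread between these samples, which may be partly technical.

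FAK, encoded by *Ptk2*, is a cytoplasmic tyrosine kinase that is recruited to clustered integrins, where it binds Src and phosphorylates scaffolds such as paxillin and p130Cas. Its close relative PYK2 is encoded by *Ptk2b*. Part of what follows concerns ATF4, the transcription factor of the integrated stress response, which cells translate when kinases such as GCN2 or PERK phosphorylate eIF2α, and which also lies downstream of mTORC1. ATF4 binds composite elements in the promoters of genes for amino acid uptake, amino acid synthesis and tRNA charging.

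Upstream windows of 5 genes on a list of ATF4 pathway genes are shown as examples of a textbook ATF4 element, and were picked because they hold a match. They were read from RefSeq (GRCm38.p6), which had an entry for 28 of the 32 listed genes. Each window is the 250 bases before the start site, 5′ to 3′ on the strand of the gene. Capitals mark each match to TGATGNAAN on either strand, the only motif searched, chosen after the expression values were seen. The windows are chr3:50443614-50443863 on the minus strand for *Slc7a11*, chr2:119350992-119351241 on the plus strand for *Chac1*, chr14:55540016-55540265 on the plus strand for *Pck2*, chr7:126625471-126625720 on the minus strand for *Nupr1* and chr6:7693210-7693459 on the minus strand for *Asns*.
Slc7a11: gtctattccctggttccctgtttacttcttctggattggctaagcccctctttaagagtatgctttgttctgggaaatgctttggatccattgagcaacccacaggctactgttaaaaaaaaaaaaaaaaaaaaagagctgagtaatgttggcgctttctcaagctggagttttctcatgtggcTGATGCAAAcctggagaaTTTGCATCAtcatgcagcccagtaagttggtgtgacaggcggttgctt
Chac1: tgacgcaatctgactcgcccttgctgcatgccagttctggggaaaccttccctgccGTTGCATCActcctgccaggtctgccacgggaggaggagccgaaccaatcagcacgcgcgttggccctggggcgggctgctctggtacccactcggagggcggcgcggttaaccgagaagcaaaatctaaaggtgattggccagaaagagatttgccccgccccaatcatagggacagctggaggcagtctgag
Pck2: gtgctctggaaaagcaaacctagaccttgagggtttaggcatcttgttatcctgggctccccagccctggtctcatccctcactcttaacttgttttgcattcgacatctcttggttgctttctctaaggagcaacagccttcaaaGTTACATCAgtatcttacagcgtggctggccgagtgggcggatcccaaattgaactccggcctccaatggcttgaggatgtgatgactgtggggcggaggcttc
Nupr1: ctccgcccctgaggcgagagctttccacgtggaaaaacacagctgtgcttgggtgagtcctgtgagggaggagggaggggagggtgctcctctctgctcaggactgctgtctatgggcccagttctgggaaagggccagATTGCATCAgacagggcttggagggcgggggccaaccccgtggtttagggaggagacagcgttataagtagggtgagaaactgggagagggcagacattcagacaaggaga
Asns: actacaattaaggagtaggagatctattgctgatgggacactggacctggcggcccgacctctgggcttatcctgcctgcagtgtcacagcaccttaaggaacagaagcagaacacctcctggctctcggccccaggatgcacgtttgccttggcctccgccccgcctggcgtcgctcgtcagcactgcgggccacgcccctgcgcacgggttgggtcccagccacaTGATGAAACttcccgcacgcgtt

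*Slc7a11* held a pair of matches on opposite strands, with first bases 66 and 48 bases before the start site. The match began 194 bases before the start in *Chac1*, 104 bases before it in *Pck2*, 111 bases before it in *Nupr1* and 23 bases before it in *Asns*. In *Trib3*, whose upstream window is not shown, the match began 13 bases after the start site. Over windows of 250 bases before to 50 bases after the start, the letters occurred in 10 of the 28 ATF4 list genes with an entry (35.7%), in 289 of 10507 tested genes (2.75%) and in 1215 of all 27025 genes with an entry (4.5%). The list was made of ATF4 pathway genes and the motif is the textbook ATF4 element. A higher share in the list was therefore built in and is no test of ATF4 in these data. A match describes the letters in the window and does not show that ATF4 was bound there.

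Total counts ranged from 22539806 to 25999614 with defactinib, from 23095303 to 26550878 with VS-4718 and from 22952048 to 27449516 with DMSO. At this depth 16070 of the 49315 listed genes had enough counts to be tested. Among 7 macrophage marker genes, *Ptprc* and *Adgre1* were at 0 counts in all 6 libraries, whereas *Cd68* had 82 to 139 counts, *Csf1r* 15 to 20, *Cx3cr1* 2 to 14 and *Aif1* 4 to 10. The macrophage markers summed to 5.08 to 5.55 CPM (TMM-scaled counts relative to the library total) with defactinib and 5.36 to 6.44 CPM with VS-4718, and their part in the results was not tested. The T cell genes *Cd3e* and *Cd3g* and the neuron gene *Elavl4* were at 0 counts, and the other T cell and neuron markers had at most 4. SC markers were present through *Sox10*, *Ngfr* and *Erbb3*, whereas *S100b* had at most 11 counts in any of the 6. The fibroblast genes *Dcn* and *Lum* had at most 1 count, although *Col1a1* and *Pdgfrb* were expressed.

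With VS-4718, 5460 genes differed from defactinib at an adjusted p under 0.05 by the quasi-likelihood test of edgeR, which is 34.0% of the 16070 genes tested. The split was near even, with 2892 genes higher with VS-4718 (18.0%) and 2568 lower (16.0%). Most differences were small. Under 1.5-fold lay 4836 of the called genes (88.6%), and the median size of a called difference was 0.24 on the log2 scale. Only 183 called genes differed at least 2-fold (3.35% of those called), and of these 127 were lower and 56 higher with VS-4718. All 3 VS-4718 libraries lay above all 3 defactinib libraries in 22.0% of the genes tested and below them in 20.1%. The same test called 6303 genes for VS-4718 against DMSO (39.2%, 20.4% higher) and 3594 genes for defactinib against DMSO (22.4%). These 2 counts share the DMSO libraries.

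**Figure D1:**
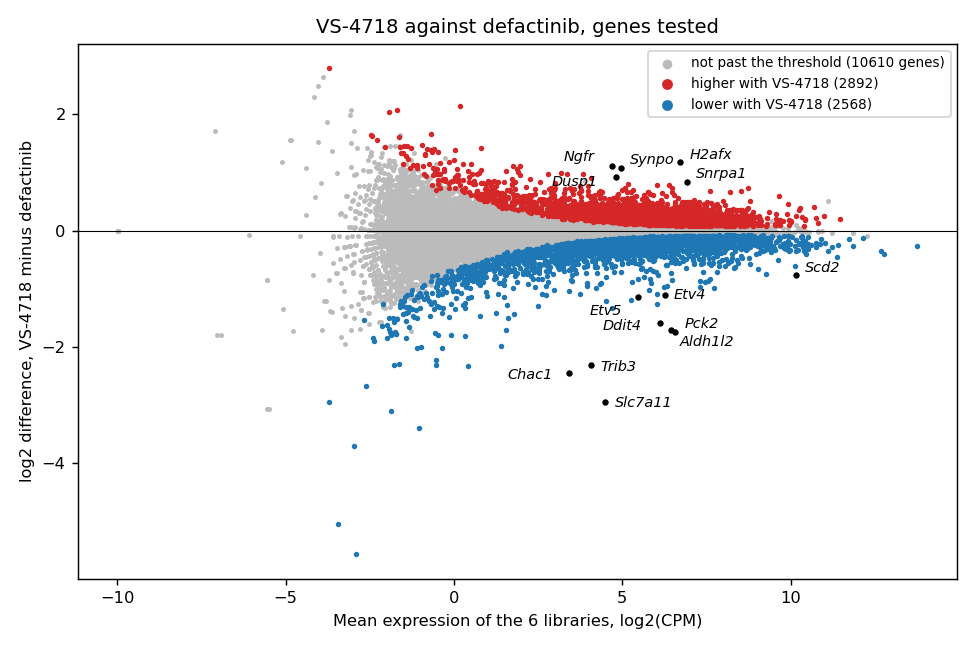
Each point is 1 of the 16070 genes tested, with its mean expression over the 6 libraries in log2 CPM (counts scaled to a common library total) on the x axis and its log2 difference, VS-4718 minus defactinib, on the y axis. Red points (2892 genes) were higher and blue points (2568 genes) lower with VS-4718 at an adjusted p under 0.05, grey points were not called, and *Slc7a11* lies lowest among the labelled genes at -2.94.

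Called genes were ranked if they averaged 5 CPM or more across all 24 libraries and did not overlap between the drugs. Genes known only by an identifier, clone or predicted name were left out. The 6 ranked genes with the largest differences were all members of the ATF4 list, and all were lower with VS-4718. *Slc7a11* (ENSMUSG00000027737, chr3:49892526-50443614 in GRCm38), the cystine transporter chain of system xc-, stood at 39.8, 40.4 and 39.7 CPM with defactinib and at 4.95, 5.24 and 5.39 CPM with VS-4718. The DMSO libraries lay between, at 31.3, 29.8 and 29.7 CPM. The 3 groups did not overlap, and *Slc7a11* was 7.68-fold lower with VS-4718 than with defactinib (log2 difference -2.94, SE 0.069, edgeR adjusted p = 1.2e-29).

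*Chac1* (ENSMUSG00000027313, chr2:119351229-119354381), which encodes a glutathione-degrading enzyme, measured 16.4, 20.1 and 17.8 CPM with defactinib and 3.77, 3.23 and 2.89 CPM with VS-4718. Its log2 difference was -2.45 (SE 0.098, edgeR adjusted p = 4.4e-22). *Trib3* (ENSMUSG00000032715, chr2:152337422-152344032), a pseudokinase that feeds back on ATF4, had 27.6, 27.9 and 28.1 CPM with defactinib and 5.03, 6.38 and 5.51 CPM with VS-4718 (log2 difference -2.31, SE 0.076). In both genes the DMSO libraries were above the defactinib libraries, at 21.9 to 25.1 CPM for *Chac1* and 32.0 to 37.3 CPM for *Trib3*, so that both drugs lay below DMSO.

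The mitochondrial enzymes followed the pattern of *Slc7a11*. *Pck2* (ENSMUSG00000040618, chr14:55540266-55551242), the mitochondrial phosphoenolpyruvate carboxykinase, rose from 97.5, 99.9 and 96.2 CPM with DMSO to 144, 146 and 148 CPM with defactinib and fell to 45.5, 41.4 and 44.1 CPM with VS-4718. Each shift passed the threshold, and the 2 drugs differed by -1.74 on the log2 scale (SE 0.037, edgeR adjusted p = 6.0e-31). *Aldh1l2*, a mitochondrial folate enzyme, was at 134, 129 and 137 CPM with defactinib against 38.7, 43.3 and 40.9 CPM with VS-4718 (log2 difference -1.71). Of its exonic bases 14.1% lie opposite *D10Wsu102e*, and without a stated strand setting the reads of the pair cannot be told apart. The same limit holds for other genes named here whose exons lie opposite those of another gene. The largest shares of exonic bases were 76.7% in *Ilk* (with *Taf10*), 52.6% in *Jund*, 26.5% in *Ftl1*, 23.4% in *Ccnd1*, 22.7% in *Ankrd37*, 22.3% each in *Bnip3* and *Mmp19*, 17.4% in *Ccne2* and 10.4% in *Psph*. In *Pkm* 15.3% of exonic bases overlap *Gm49759* on the same strand, where no strand setting would separate the reads.

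Of the 32 ATF4 pathway genes listed, all of which were tested, 30 were lower with VS-4718, beside 16.0% of all genes tested, and none was higher. Their median log2 difference was -0.72, against 0.00 over all genes tested, and 8 were at least 2-fold lower. The 2 members that did not pass were *Atf3* (log2 difference -0.28, edgeR adjusted p = 0.097) and *Ppp1r15a*, the phosphatase subunit that reverses eIF2α phosphorylation (0.13, edgeR adjusted p = 0.11). Their 95% intervals ran from -0.54 to -0.02 and from 0.00 to 0.25. The list was chosen with earlier results of these data known, so its counts describe these genes and are no independent test.

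Ordered by role, all 6 aminoacyl-tRNA synthetase genes were lower, between -0.87 for *Cars* and -0.36 for *Eprs* on the log2 scale. All 6 enzymes of serine, glycine and one-carbon metabolism were lower as well, from -1.71 for *Aldh1l2* to -0.18 for *Phgdh*, the first enzyme of serine synthesis. *Psph*, the last enzyme of that pathway, was at 72.9, 78.0 and 73.3 CPM with defactinib and 34.3, 36.2 and 39.3 CPM with VS-4718. The 3 amino acid transporter chains were lower, *Slc7a5* at -0.58 and its partner *Slc3a2* at -0.49, beside -2.94 for *Slc7a11*. *Asns*, asparagine synthetase, had 210, 212 and 203 CPM with defactinib and 104, 110 and 106 CPM with VS-4718.

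Among 6 transcription factors of the list, 5 were lower. *Atf4* itself was at 283, 279 and 284 CPM with defactinib and 173, 169 and 172 CPM with VS-4718, beside 310, 303 and 297 CPM with DMSO (log2 difference between the drugs -0.72, SE 0.032). *Ddit3*, which encodes CHOP, had 12.7, 14.6 and 13.0 CPM against 8.50, 9.78 and 7.56 CPM. *Atf5* had 82.2, 84.8 and 86.5 CPM with defactinib, 50.7, 51.7 and 47.3 CPM with VS-4718 and 57.4 to 60.3 CPM with DMSO. None of these drug groups overlapped.

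The list also holds brakes on mTORC1. *Ddit4*, which encodes REDD1, was at 101, 106 and 108 CPM with defactinib and 34.3, 37.2 and 33.7 CPM with VS-4718, and the DMSO libraries lay above both at 144 to 160 CPM. *Sesn2* was at 27.4, 26.7 and 32.1 CPM with defactinib and 16.9, 16.9 and 16.2 CPM with VS-4718. Set beside DMSO, the list had 0 members higher and 31 lower with VS-4718 (median log2 difference -0.71, where 18.9% of all genes tested were lower) and 16 higher and 9 lower with defactinib (median 0.10, where 11.4% were higher and 11.0% lower).

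**Figure D2:**
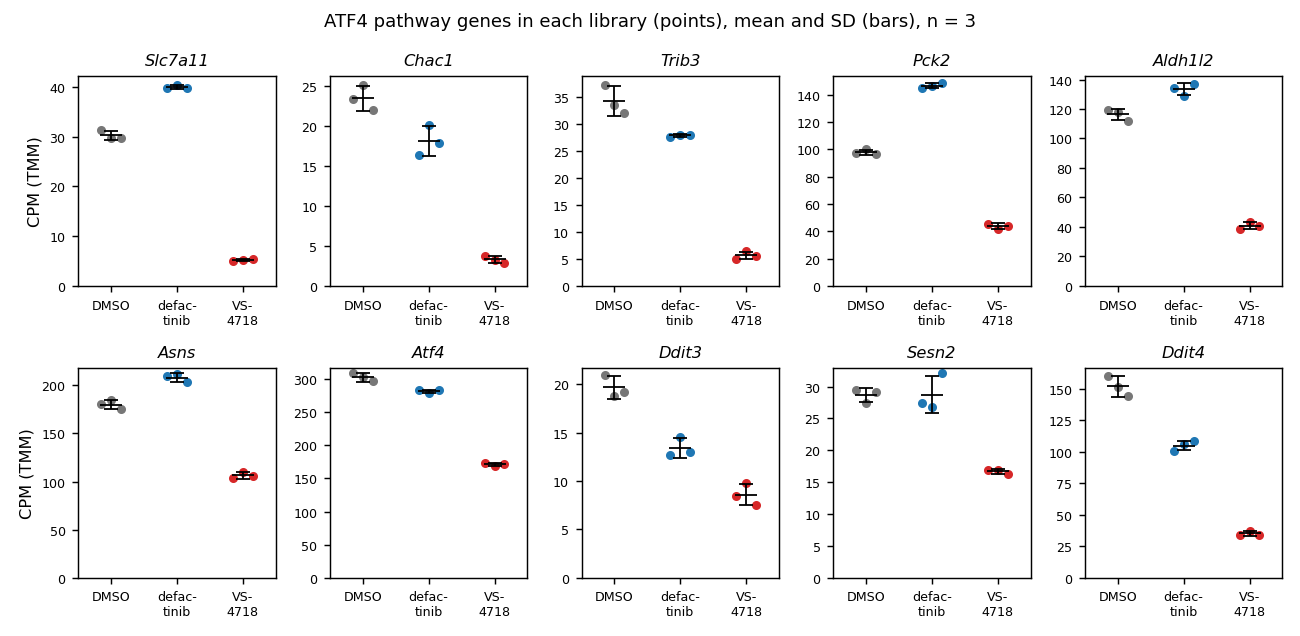
Expression in CPM (y axis, from 0) of 10 ATF4 pathway genes in each library with DMSO, defactinib or VS-4718 (x axis), with points for libraries and bars for the mean and SD of n = 3. For each gene all 3 VS-4718 libraries lie below all 3 defactinib libraries, and for *Slc7a11*, *Pck2*, *Aldh1l2* and *Asns* the defactinib libraries lie above DMSO.

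Of the 12 lowest genes, 6 were outside the ATF4 list. *Herpud1*, a factor of endoplasmic reticulum protein degradation, had 36.8, 37.7 and 37.5 CPM with defactinib and 15.4, 13.9 and 15.4 CPM with VS-4718 (log2 difference -1.32, edgeR adjusted p = 1.1e-21). *Gpt2*, the mitochondrial alanine aminotransferase, was 2.40-fold lower, and *Cth*, the transsulfuration enzyme that makes cysteine, was 2.30-fold lower. The others were *Bhlhe40*, a clock and hypoxia repressor (2.28-fold lower), *Dqx1*, a helicase-like gene at 7.19 to 9.49 CPM with defactinib and 3.15 to 3.43 CPM with VS-4718, and *Etv5*.

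Across all 25 lists, 608 of 682 listed members were tested, and the 74 others had at most 12 counts in any library. All lists were chosen with earlier results of these data known, so their shares and order are descriptive and no independent test. The lowest medians after the ATF4 list were those of fatty acid synthesis (-0.34), HIF and glycolysis (-0.26), cholesterol synthesis (-0.19) and ERK output (-0.19). The highest were those of SRF and actin targets (0.32), the 6 aryl hydrocarbon receptor targets (0.31), SC identity (0.28) and FAK partners (0.18). Beside the 34.0% of all genes tested that were called in either direction, the share of members called was 93.8% in the ATF4 list, 83.3% in HIF and glycolysis, 82.6% in SRF and actin targets, 70.8% in ERK output and 65.5% in FAK partners. It was near the share of all genes for NF-kB targets (32.0%), aryl hydrocarbon receptor targets (33.3%), SC identity (37.0%), p53 targets (38.9%), lysosome (39.5%), mitosis and collagens (40.0% each) and integrins (41.2%), and nothing is read from the counts of those lists about their members as a group. The rest had 43.8% to 63.9% of their members called.

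**Figure D3:**
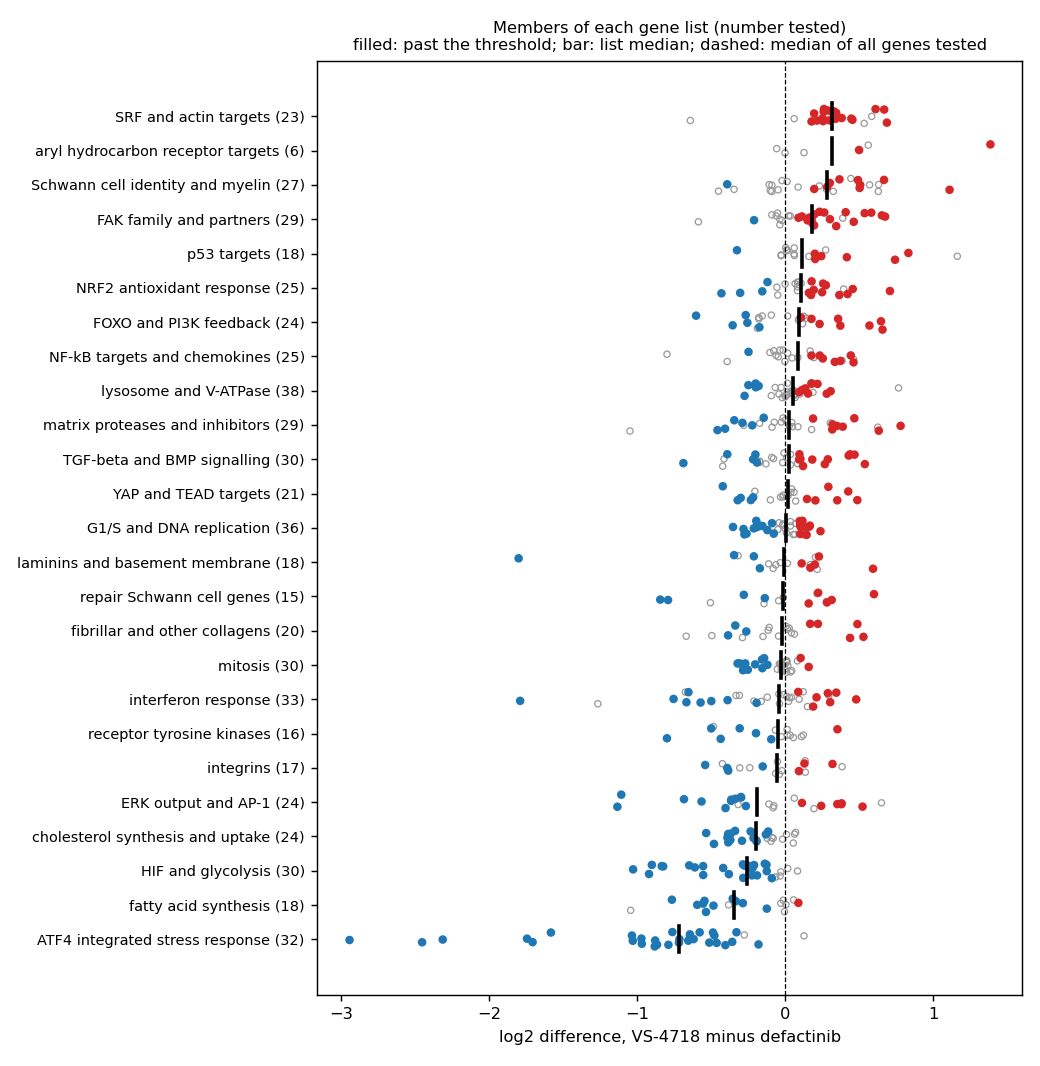
Log2 difference, VS-4718 minus defactinib (x axis), of every tested member of the 25 gene lists (y axis, number tested in brackets), with filled points past the threshold, red for higher and blue for lower, black bars for list medians and a dashed line for the median of all genes tested. The ATF4 list lies furthest to the left, with a median of -0.72, and the SRF and actin list has 19 filled points, all to the right of 0.

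Most hypoxia and glycolysis genes were lower with VS-4718. HIF-1 is the oxygen-regulated factor that drives glucose uptake, glycolysis and angiogenic signals. Of 30 members tested, 25 were lower with VS-4718 than with defactinib (83.3%, beside 16.0% of all genes tested, median -0.26) and none was higher. The 3 transporters for glucose and lactate were all lower, with *Slc2a3* (GLUT3) at 58.7, 56.5 and 54.9 CPM with defactinib and 32.1, 35.2 and 28.9 CPM with VS-4718. *Slc2a1* (GLUT1) had 231, 246 and 255 CPM against 176, 172 and 151 CPM.

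Glycolytic enzymes moved less, with 11 of 14 lower and a median of -0.23. The largest of these was *Hk2*, hexokinase 2 (-0.42), followed through *Ldha* (-0.29) down to *Pkm* and *Hk1*, each at -0.03 with 95% intervals of -0.09 to 0.02 and -0.10 to 0.04. Non-glycolytic targets differed more, with 8 of 8 lower and a median of -0.74. *Bnip3*, a mitophagy receptor, was at 77.3, 76.3 and 73.8 CPM with defactinib and 40.5, 41.3 and 40.0 CPM with VS-4718. *Pdk1*, which restrains pyruvate entry into mitochondria, was at 71.6, 72.4 and 73.7 CPM against 42.6, 39.2 and 40.2 CPM.

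*Car9*, a carbonic anhydrase, was at 27.3, 28.3 and 23.5 CPM against 13.4, 14.7 and 13.6 CPM, and *Ankrd37* was 2.04-fold lower. *Vegfa*, which is also a HIF target but stood on the list of repair SC genes, had 111, 119 and 110 CPM with defactinib and 64.6, 61.9 and 63.6 CPM with VS-4718 (log2 difference -0.84, edgeR adjusted p = 5.0e-19). The transcript of *Hif1a* was lower by far less (-0.12). Against DMSO, 28 HIF and glycolysis members were lower with VS-4718 (median -0.47, where 18.9% of all genes tested were lower), and 19 were lower and 1 higher with defactinib (median -0.17, where 11.0% were lower).

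Most lipid synthesis genes on both lists were lower too. SREBP factors drive both pathways, SREBP-2 mainly the cholesterol pathway and SREBP-1 mainly fatty acid synthesis. Of 24 cholesterol genes tested, 15 were lower with VS-4718 (62.5%, beside 16.0% of all genes tested) and none was higher (median -0.19), led by *Insig1* (-0.53), which retains SREBP in the endoplasmic reticulum, and *Msmo1* (-0.48). *Srebf2* itself was at 0.05 (95% interval -0.01 to 0.12). Of 18 fatty acid genes, 10 were lower (55.6%, median -0.34).

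The stearoyl-CoA desaturase *Scd2* was the member with the largest called difference, at 1426, 1409 and 1451 CPM with defactinib and 828, 853 and 840 CPM with VS-4718 (log2 difference -0.77, SE 0.030, edgeR adjusted p = 3.8e-22). *Scd1* differed by -0.59, the desaturase *Fads1* by -0.55, *Fads2* by -0.48 and *Srebf1* by -0.35. *Acaca*, the first committed enzyme of fatty acid synthesis, was at -0.03 (95% interval -0.10 to 0.04). *Fasn* was the 1 member called higher (0.09, edgeR adjusted p = 0.045), its libraries overlapped, and the call was lost without VS-4718 replicate 1 (adjusted p = 0.289) or replicate 2 (0.085) and without defactinib replicate 1 (0.29) or replicate 2 (0.296).

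**Figure D4:**
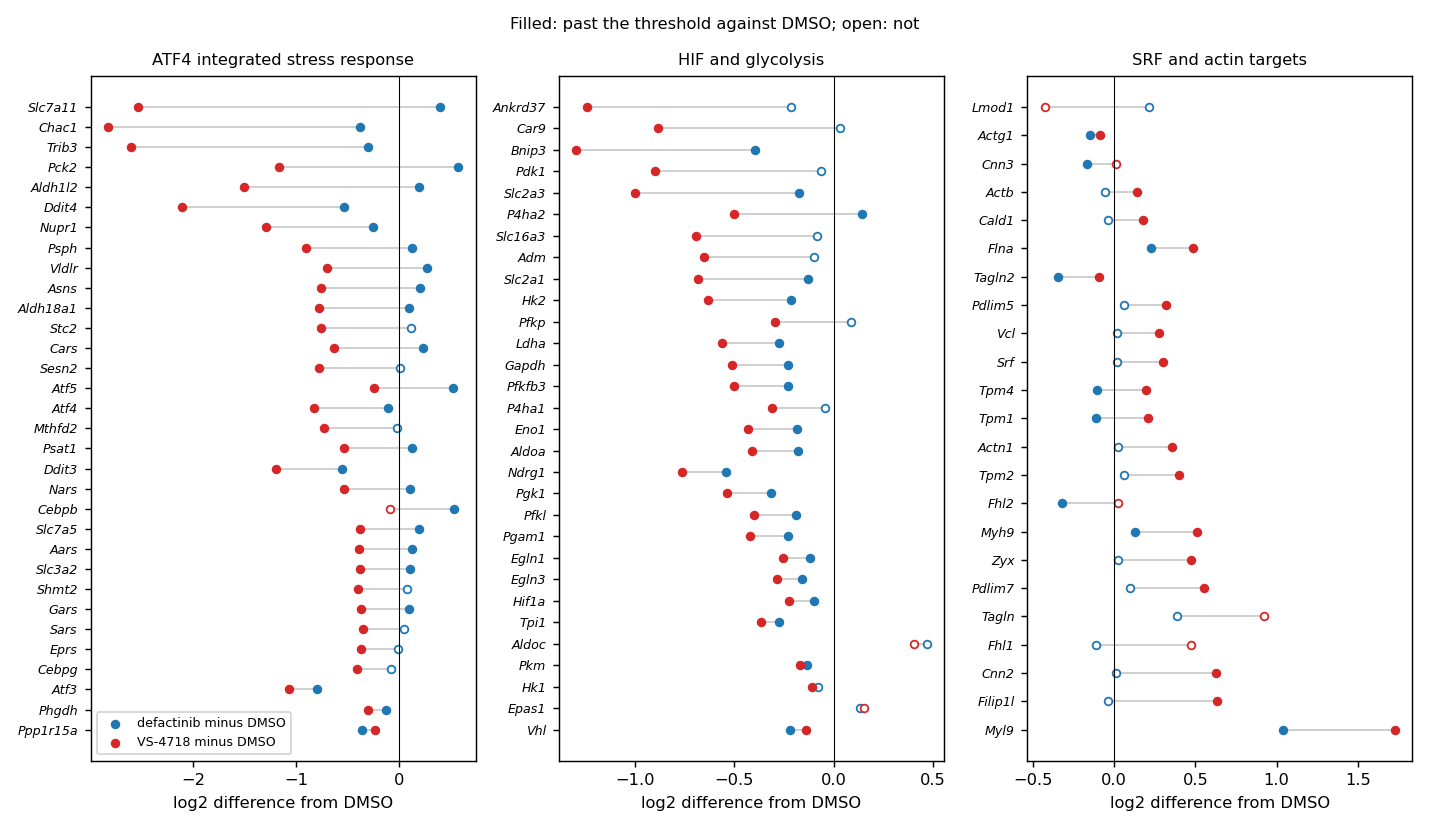
Log2 difference from DMSO (x axis) for each tested member of 3 lists (y axis), in blue for defactinib and red for VS-4718, filled where past the threshold against DMSO and open where not. In the ATF4 list 31 members are lower with VS-4718 and 16 are higher with defactinib, in the HIF list 28 and 19 members are lower with VS-4718 and defactinib, and in the SRF list 16 and 3 members are higher.

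Most SRF and actin targets were higher with VS-4718. SRF, with its actin-sensing cofactors of the MRTF family, drives genes of actin filaments and contractility. Of 23 SRF and actin targets tested, 19 were higher with VS-4718, beside 18.0% of all genes tested, and none was lower (median 0.32). *Filip1l* had 70.1, 69.6 and 67.3 CPM with defactinib and 107, 109 and 113 CPM with VS-4718 (log2 difference 0.67, edgeR adjusted p = 3.3e-16). *Cnn2*, calponin 2, was at 69.7, 77.2 and 72.0 CPM against 116, 112 and 107 CPM.

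*Zyx*, the focal adhesion protein zyxin, had 207, 230 and 232 CPM with defactinib and 322, 314 and 277 CPM with VS-4718. *Myh9*, non-muscle myosin heavy chain IIA, was higher by 0.38 and *Actb* by 0.20, and the tropomyosins *Tpm1*, *Tpm2* and *Tpm4* were all higher, by 0.30 to 0.34. *Srf* itself was higher by 0.28. *Myl9*, the member with the largest value (0.69), rested on 1.41 to 1.96 CPM with defactinib and 2.66 to 2.74 CPM with VS-4718, and its call was lost without defactinib replicate 2 (adjusted p = 0.0709). Against DMSO, 16 members were higher and 2 lower with VS-4718 (median 0.32, where 20.4% of all genes tested were higher and 18.9% lower), and 3 were higher and 6 lower with defactinib (median 0.02, where 11.4% were higher and 11.0% lower).

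Most genes of FAK partners were higher with VS-4718, whereas *Ptk2* was not called. Of 29 FAK family and partner genes tested, 18 were higher with VS-4718 (62.1%, beside 18.0% of all genes tested) and 1 was lower (3.45%, beside 16.0%), with a median of 0.18. *Bcar1*, which encodes p130Cas, was at 143, 153 and 157 CPM with defactinib and 251, 245 and 226 CPM with VS-4718 (log2 difference 0.67, SE 0.039, edgeR adjusted p = 5.8e-17). *Tns1*, tensin 1, had 55.7, 55.0 and 59.4 CPM against 91.4, 88.3 and 88.0 CPM, and its DMSO libraries were lowest at 41.8 to 44.8 CPM.

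The adaptor *Nedd9* was higher by 0.46, *Src* by 0.41, paxillin (*Pxn*) by 0.34, the paxillin relative *Tgfb1i1* by 0.58 and the integrin-linked kinase *Ilk* by 0.54, a value that is uncertain since most of its exonic bases lie opposite *Taf10*. The 1 lower member was the Src-family kinase *Yes1* (-0.21). Against DMSO, 19 members were higher and 3 lower with VS-4718, where 20.4% of all genes tested were higher and 18.9% lower, and 3 were higher and 3 lower with defactinib, where 11.4% were higher and 11.0% lower.

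*Ptk2* (ENSMUSG00000022607, chr15:73205102-73423280) had 88.1, 87.7 and 83.7 CPM with defactinib, 83.5, 84.1 and 85.3 CPM with VS-4718 and 92.9, 95.4 and 97.7 CPM with DMSO. The drug groups overlapped (log2 difference -0.04, 95% interval -0.11 to 0.04, edgeR adjusted p = 0.47, exact two-sided permutation p = 0.3 on log2(CPM + 4)), and both lay below DMSO. *Ptk2b* had 0 to 4 counts in all 24 libraries and was not tested.

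*Met*, which encodes the receptor for HGF, was slightly lower with VS-4718, at 232, 224 and 229 CPM with defactinib and 194, 203 and 201 CPM with VS-4718. The log2 difference was -0.20 (SE 0.033, edgeR adjusted p = 6.6e-06), and the exact two-sided permutation p was 0.1, the smallest that 3 against 3 libraries allow. *Nf2* counts did not pass (log2 difference 0.06, edgeR adjusted p = 0.16) and gave 178 to 184 CPM with defactinib and 185 to 193 CPM with VS-4718. Counts summed over the gene do not show which exons the line has lost.

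Called readouts of ERK signalling mostly split by class. PEA3 factors and Sprouty and Dusp genes are textbook targets and feedback inhibitors of the RAS-ERK pathway. Of 24 genes tested on the list, 11 were lower (45.8%, beside 16.0% of all genes tested) and 6 higher (beside 18.0%) with VS-4718. The 3 PEA3 factors were all lower. *Etv5* had 60.7, 57.0 and 63.9 CPM with defactinib and 27.1, 27.8 and 28.0 CPM with VS-4718 (log2 difference -1.13, edgeR adjusted p = 3.8e-21).

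*Etv4* had 99.8, 108 and 106 CPM against 45.1 to 50.9 CPM with VS-4718, with DMSO at 99.7 to 103 CPM, so that the defactinib and DMSO libraries overlapped. *Spry4* (-0.68), *Dusp6* (-0.27) and the cyclin gene *Ccnd1* (-0.40) were lower. Of the 9 Sprouty, Spred and Dusp genes 6 were lower and 1 higher, beside 16.0% and 18.0% of all genes tested. In contrast, of 8 AP-1 and Egr factors 4 were higher and none lower, beside 18.0% and 16.0% of all genes tested. The rest were not called, and the 8 ran from -0.32 to 0.65 on the log2 scale. Among those called higher were *Jund* (0.52, uncertain since 52.6% of its exonic bases lie opposite *Gm11175*), *Fosl2* (0.38) and *Junb* (0.35). *Dusp1*, an immediate early phosphatase of p38 and JNK that was not on the list, had 19.5, 19.4 and 19.8 CPM with defactinib and 37.7, 38.4 and 34.9 CPM with VS-4718 (log2 difference 0.92).

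A minority of SC identity genes, *Ngfr* and *Sox10* among them, were higher with VS-4718. *Sox10* is the lineage factor of SCs, *Ngfr* encodes the p75 neurotrophin receptor of immature and repair SCs, and *Mbp* encodes a myelin protein. Of 27 identity and myelin genes tested, 9 were higher (33.3%, beside 18.0% of all genes tested), 1, *Ncam1* (-0.39), was lower and 17 were not called (median 0.28). In both directions together 37.0% were called, near the 34.0% of all genes tested. *Ngfr* (ENSMUSG00000000120, chr11:95568818-95587735) had 16.1, 16.4 and 16.6 CPM with defactinib, 37.5, 36.2 and 32.4 CPM with VS-4718 and 9.63, 10.5 and 11.1 CPM with DMSO (log2 difference between the drugs 1.11, SE 0.063, edgeR adjusted p = 3.3e-17).

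*Sox10* was at 27.2, 30.4 and 30.9 CPM with defactinib, 48.7, 50.1 and 42.2 CPM with VS-4718 and 19.7 to 20.3 CPM with DMSO. *Erbb3*, the neuregulin receptor, was higher by 0.50, *Mbp* by 0.51, *Cnp* by 0.49 and *Pmp22* by 0.30. For *Ngfr*, *Sox10* and *Mbp* the order was DMSO, defactinib, VS-4718 with no overlap between groups. Against DMSO, 17 members were higher with VS-4718 (median 0.51, where 20.4% of all genes tested were higher) and 13 with defactinib (median 0.36, where 11.4% were higher), and none was lower with either drug. The 8 SC markers summed to 57.7 to 63.6 CPM with defactinib and 92.9 to 104 CPM with VS-4718, and in bulk samples more SC-like cells and more RNA per cell cannot be told apart.

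**Figure D5:**
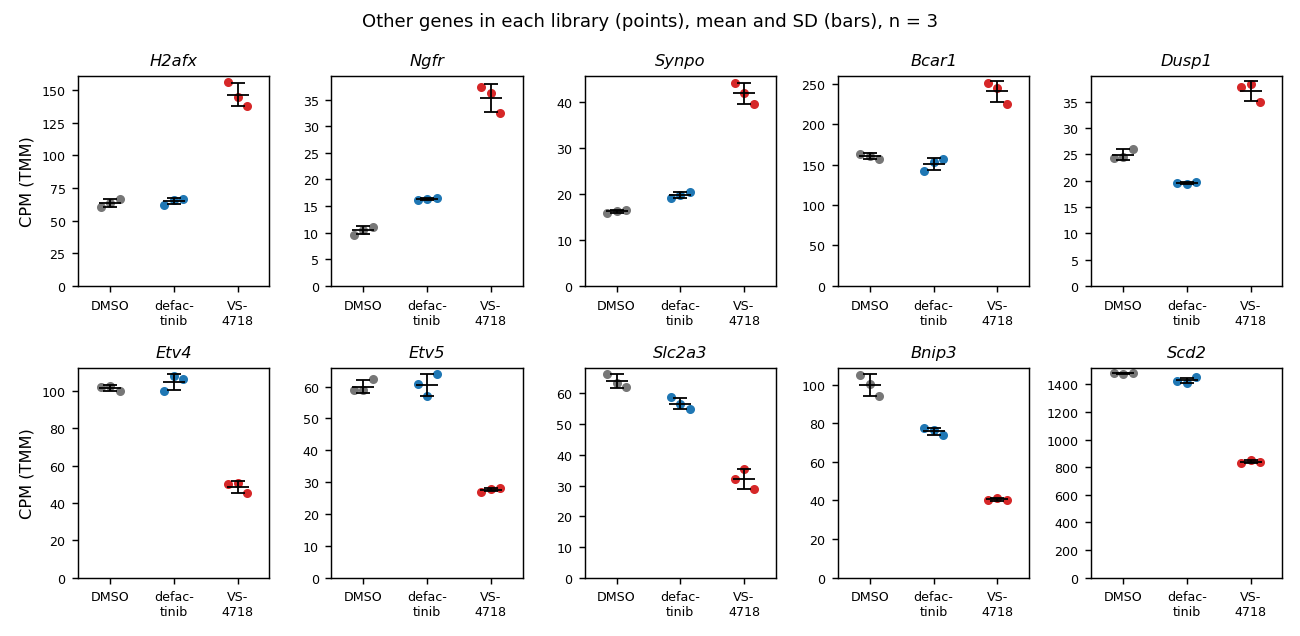
Expression in CPM (y axis, from 0) of 10 further genes in each library with DMSO, defactinib or VS-4718 (x axis), with points for libraries and bars for the mean and SD of n = 3. The VS-4718 libraries of *H2afx*, *Ngfr*, *Synpo*, *Bcar1* and *Dusp1* lie above, and those of *Etv4*, *Etv5*, *Slc2a3*, *Bnip3* and *Scd2* below, all defactinib libraries.

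Further genes headed the differences in the other direction. *H2afx* (ENSMUSG00000049932, chr9:44334694-44336077), the histone variant that is phosphorylated at DNA breaks, had 62.1, 66.0 and 66.3 CPM with defactinib and 156, 145 and 138 CPM with VS-4718, beside 60.5 to 66.5 CPM with DMSO (log2 difference 1.18, SE 0.045, edgeR adjusted p = 1.5e-22). Of its exonic bases 10.2% lie opposite *Gm44335*, with which its reads could be shared. The linker histone *Hist1h1c* was 1.97-fold higher, at 5.79 to 7.89 CPM and 12.8 to 14.9 CPM. The libraries were poly(A)-selected, so any transcripts of these histone genes without a poly(A) tail would be missed.

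*Synpo*, which encodes the actin-binding protein synaptopodin, had 19.0, 19.8 and 20.5 CPM with defactinib and 44.2, 41.9 and 39.5 CPM with VS-4718 (log2 difference 1.08). *Snrpa1*, a spliceosomal protein gene, was at 84.8, 86.4 and 90.1 CPM against 157, 156 and 156 CPM. *Gal3st1*, the sulfotransferase that makes the myelin lipid sulfatide, was 1.99-fold higher, and *Bmf*, a proapoptotic BH3-only gene, 1.97-fold higher.

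*Scx*, the tendon factor scleraxis, had 10.9, 12.7 and 11.7 CPM with defactinib, 23.0, 21.7 and 21.2 CPM with VS-4718 and 15.5 to 16.6 CPM with DMSO between them. *Dusp1* and *Snrpa1* had the same arrangement, with each drug past the threshold against DMSO in its own direction. The rest of the 12 highest were the molybdenum enzymes *Xdh* (1.85-fold, at 2.70 to 3.68 CPM and 5.26 to 7.47 CPM) and *Aox1* (1.86-fold, at 1.91 to 2.68 CPM and 3.15 to 4.98 CPM), both of which reached the minimum of 5 CPM through groups outside this comparison, and *Gpx4-ps2*, a processed pseudogene (0.97) whose reads may come from *Gpx4* or its other copies, which makes its value uncertain.

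Cell cycle genes differed by little. Of 36 genes of G1/S and DNA replication, 11 were higher (30.6%, beside 18.0% of all genes tested) and 12 lower (33.3%, beside 16.0%), with a median of 0.00. They ran from *E2f1* (-0.35) and *Ccne2* (-0.28) to the replication clamp *Pcna* (0.24), at 431, 442 and 448 CPM with defactinib and 527, 521 and 511 CPM with VS-4718. Of the MCM helicase genes 5 of 7 were higher, by at most 0.12. The higher count fell to 6 without VS-4718 replicate 1 or defactinib replicate 1 and to 7 without defactinib replicate 2. Of 30 mitotic genes 10 were lower (33.3%) and 2 higher (6.67%), led by *Cdc25b* (-0.32), *Mki67* (-0.31) and *Top2a* (-0.27), and *Cdk1* was at -0.03 (95% interval -0.10 to 0.04). The higher mitotic count was 1 without VS-4718 replicate 1, defactinib replicate 1 or defactinib replicate 3.

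Of 25 NRF2 targets, the antioxidant response, 11 were higher (44.0%, beside 18.0% of all genes tested) and 4 lower (16.0%, as over all genes tested). *Aldh3a1* was at 30.6, 31.4 and 29.5 CPM with defactinib and 49.1, 47.8 and 52.1 CPM with VS-4718, and the ferritin light chain *Ftl1* differed by 0.46. *Slc7a11*, which NRF2 also induces, went the other way. With library totals in place of TMM 17 NRF2 members were higher, and without VS-4718 replicate 2 only 2 were lower.

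Of 18 p53 targets 6 were higher (33.3%, beside 18.0% of all genes tested), with *Trp53inp1* at 0.83 and *Btg2* at 0.74, and only *Cdkn1a*, which encodes the cell cycle inhibitor p21, was lower (-0.33, not past the threshold without VS-4718 replicate 1). Of 6 aryl hydrocarbon receptor genes 2 were higher, *Ahr* (0.50) and *Cyp1a1* (1.39, at 0.41 to 0.67 CPM and 1.22 to 1.63 CPM), and without VS-4718 replicate 3 another was called lower. Of 38 lysosomal genes 10 were higher (26.3%) and 5 lower (13.2%, beside 16.0% of all genes tested). Among the called members, the V-ATPase subunits *Atp6v1b2* (0.31) and *Atp6v1f* (0.28) were highest, and the hydrolases *Glb1* (-0.27) and *Gaa* (-0.25) lowest. Of 24 FOXO and PI3K feedback genes 8 were higher (33.3%), such as the ubiquitin ligase *Fbxo32* (0.66), and 5 lower (20.8%), such as *Trib2* (-0.60).

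Of 33 interferon response genes, 7 were higher (21.2%, beside 18.0% of all genes tested) and 8 lower (24.2%, beside 16.0%) with VS-4718. *Rsad2*, which encodes viperin, was at 1.48, 1.27 and 1.65 CPM with defactinib and 0.61, 0.22 and 0.42 CPM with VS-4718, and *Dhx58* differed by -0.75. *Parp14* (0.48) and *Parp9* (0.35) were higher. Of 25 NF-kB targets and chemokines 8 were called (32.0%, beside 34.0% of all genes tested), of which 7 were higher, among them the feedback inhibitors *Nfkbia* (0.46) and *Tnfaip3* (0.44), and 1, the macrophage growth factor *Csf1*, was lower. *Csf1* had 545, 537 and 546 CPM with defactinib and 462, 465 and 444 CPM with VS-4718, beside 458 to 463 CPM with DMSO. The lower count was 2 without VS-4718 replicate 1 or replicate 3.

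Matrix and growth factor genes showed no common direction. Of 30 TGF-beta and BMP genes 11 were higher (36.7%, beside 18.0% of all genes tested) and 5 lower (16.7%, beside 16.0%), with *Id2* (0.54) and *Id3* (0.47) higher and *Id1* lower (-0.39) although its libraries overlapped. The higher count was 6 without VS-4718 replicate 1, defactinib replicate 1 or defactinib replicate 2, and 7 without VS-4718 replicate 3. Of 21 YAP and TEAD targets 6 were higher (28.6%), such as *Ajuba* (0.49) and *Amotl2* (0.43), and 5 lower (23.8%), such as *F3* (-0.42). Of 29 matrix proteases and inhibitors 8 were higher (27.6%) and 6 lower (20.7%). The aggrecanase *Adamts4* was at 46.6, 46.4 and 51.2 CPM with defactinib and 83.9, 81.5 and 82.4 CPM with VS-4718, whereas *Timp1* (-0.46) was lower.

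Of 17 integrin genes 3 were higher (17.6%, beside 18.0% of all genes tested) and 4 lower (23.5%, beside 16.0%), with *Itga8* at -0.54 and *Itga6*, a laminin receptor chain, at -0.39, and only 1 was higher without VS-4718 replicate 1, VS-4718 replicate 2 or defactinib replicate 2. Of 18 laminin and basement membrane genes 5 were higher (27.8%) and 4 lower (22.2%), the 5 becoming 3 without VS-4718 replicate 1 or defactinib replicate 2. *Lamb3* differed by -1.80 at low levels, with 1.13, 1.00 and 1.22 CPM against 0.27, 0.31 and 0.38 CPM, and *Col4a2* by 0.23. Of 20 other collagen genes 5 were higher and 3 lower, including *Col12a1* (0.49) and *Col1a2* (-0.34).

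Of 16 receptor tyrosine kinases 1, the collagen receptor *Ddr1* (0.35), was higher (6.25%, beside 18.0% of all genes tested) and 6 were lower (37.5%, beside 16.0%), among them *Ror1* (-0.50), *Mertk* (-0.44) and *Ddr2* (-0.31). Of 15 repair SC genes 5 were higher (33.3%), such as the neurotrophic factor *Gdnf* (0.31), and 4 lower (26.7%), such as *Vegfa*. The higher repair count was 3 without VS-4718 replicate 1, VS-4718 replicate 3 or defactinib replicate 2, and the lower count was 2 without VS-4718 replicate 3 or defactinib replicate 2.

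For most genes the interval of the difference was narrow. Of the 16070 genes tested, 9960 (62.0%) had a 95% interval that lay wholly within 0.5 of 0 on the log2 scale, and 5586 (34.8%) had one within 0.25. Among the 10610 genes that were not called, 5919 lay within 0.5, and for the other 4691 a difference of that size was not excluded by the interval.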

How the data were processed

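The authors deposited raw read counts by Ensembl gene and library, not normalized. The submitters' processing notes name Trimmomatic 0.36, STAR 2.5.2b, featureCounts of Subread 1.5.2 and GRCm38. The annotation and strand setting are not given in the sources used here, so overlapping genes may share reads. Libraries were poly(A)-selected. The quasi-likelihood test of edgeR 4.0.16 (R 4.3.3, TMM, filterByExpr) was fitted to all 24 libraries, leaving 16 residual degrees of freedom. Two-sided p-values received Benjamini-Hochberg adjustment across the 16070 tested genes, and genes under 0.05 were called. CPM values use TMM-scaled library totals, and coordinates are from GENCODE M21. One pair of drugs was compared.

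Genes named were the 12 highest and 12 lowest called genes averaging 5 CPM or more across all 24 libraries. The drugs did not overlap in them, and genes known only by an identifier, clone or predicted name were left out. Also named were *Ptk2*, *Ptk2b*, *Nf2*, *Met*, up to 2 called members per list and direction, and 3 per direction called against DMSO in opposite directions. Other list members and the promoter motif were chosen after their values were seen, and all members and lists were chosen with earlier results of these data known. Replicates of the 3 groups had a chi-square of 2.05 to 6.78 for each degree of freedom, so none was treated as a copy. In a simulated VS-4718 against defactinib comparison of 16070 genes, the test recovered 71% of 100 genes changed 1.5-fold and 76% of 100 changed 2-fold, and 7.55% of its calls were false. Alternatives were RLE size factors, library totals, no filter, a replicate block, the 6 libraries alone, DESeq2 1.42.0, limma-trend of limma 3.58.1 on log2(CPM + 4), leaving out each replicate and a minimum change of 2-fold. Some items are not reported here.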

Additional observations from a re-analysis of the deposited data

How the results depend on the processing

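The 5460 calls became 5426 with RLE size factors, 5581 with library totals, 5001 without a filter, 5029 with the 6 libraries alone, 5016 with DESeq2 and 5200 with limma-trend. Leaving out 1 replicate gave 4517 to 5175 calls, 2249 to 2583 higher and 2202 to 2592 lower. With library totals 3340 genes were higher and 2241 lower, and the median of all genes tested moved by 0.02. A minimum change of 2-fold left 183 calls (56 higher, 127 lower), and a margin of 0.25 in place of 0.5 held the intervals of 5586 genes. The replicate number as a block gave 5399 calls, 98.2% of the main calls among them. The numbers did not pair the samples, since same-numbered VS-4718 and defactinib libraries correlated at -0.206, 0.0242 and -0.155 in their deviations from the group means.

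Of 167 genes, most of them named here, each under 13 alternatives, 16 lost their call under at least 1 alternative, and none reversed. They were *Cdkn1a*, *Col11a2*, *Col27a1*, *Fasn*, *Fgf5*, *Flt1*, *Fst*, *Gsta4*, *Igfbp3*, *Itgb8*, *Kif2c*, *Mmp19*, *Myl9*, *Nid2*, *Nt5e* and *Rb1*. Of 650 list counts, 614 stayed within 1.5 times. Depth limits genes near 1 CPM, where intervals are wide, and the 33245 genes not tested.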
